A study of Homo sapiens with 16 samples.

Results

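The highest and the lowest Ajuba dose of the study were compared in SW480, a cell line from a human colon adenocarcinoma. The members are the 9 RNA-seq samples of the 3 lines at the ends of the dose, out of 16 samples of 6 lines in all. The high end is Ajuba OE (n = 3), cells carrying a lentiviral construct in which the CMV promoter drives FLAG-HA tagged Ajuba together with a puromycin resistance gene. The low end is formed by shAjuba1 (n = 3), with a lentiviral short hairpin RNA against the coding region of Ajuba, and shAjuba2 (n = 3), with one against a non-coding region. Each knockdown line was given the same weight, 0.5. The control lines are Parental (n = 2), which was not transduced, shScrambled (n = 2), with a hairpin of random sequence, and Control (n = 3), with the overexpression construct from which the Ajuba sequence had been removed. All lines were grown in the same medium and used between passages 10 and 18, and transduced cells were selected with puromycin at 1.5 µg/mL. The ends therefore differ in their vector as well as in their Ajuba dose, each arm is 1 selected line, and the counts do not separate transcripts of the construct from those of the native gene. The labels do not say that the samples of a line came from separate cultures and the study calls them technical replicates, so the p-values measure the spread between these samples only.

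Ajuba is a scaffold protein of the LIM domain family that sits at cadherin junctions, binds LATS kinases of the Hippo pathway and enters the nucleus, where it acts as a corepressor of SNAIL family factors. The Hippo pathway restrains YAP and TAZ, coactivators that switch on genes through TEAD factors. In colon epithelium, cadherins, claudins and laminins hold cells to each other and to the basement membrane, while Wnt signaling keeps crypt cells proliferating.

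The 9 samples held 30132396 to 69684675 counted read pairs. Replicates of a line differed by more than sampling noise in each of 9 pairs, so none were merged. Sample 2 of Ajuba OE and sample 2 of shAjuba2 stood apart from the other samples of their lines. Levels are given as counts per 1e6 read pairs (CPM), with the library size of each sample scaled by TMM normalization. Transcripts of the mitochondrial genome summed to 120503 CPM in the former and 125503 in the latter, against at most 82863 in the others of the same lines. Cytosolic ribosomal protein transcripts summed to 24375 and 13687 CPM, against at least 26706. Sample 2 of Control had the same pattern, with mitochondrial and ribosomal sums of 113586 and 17987 CPM. Counts of list members are given without sample 2 of Ajuba OE and of shAjuba2 where they move by over 1.5 times.

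AJUBA (ENSG00000129474, chromosome 14, positions 22971177 to 22982551, minus strand, hg38) checked the labels. In shAjuba1 its level was 49.2, 47.0 and 52.8 CPM. In shAjuba2 it was 57.1, 68.1 and 54.6 CPM. In Ajuba OE it was 573, 492 and 595 CPM. The groups did not overlap, and the control lines lay between them, with 82.4 and 81.0 CPM in shScrambled, 89.2 and 92.6 CPM in Parental and 89.9, 99.7 and 88.5 CPM in Control. AJUBA was 10.1-fold higher in Ajuba OE than in the mean of both knockdown lines (log2 fold change 3.34, SE 0.10, adjusted p = 8.26e-09 by the quasi-likelihood test of edgeR with Benjamini-Hochberg adjustment). Every change given as a rise, a fall or a fold change from here on is on this log2 scale, Ajuba OE against the mean of both knockdown lines, unless another comparison is named. The dose was not evenly spaced, since the step from the control lines up to Ajuba OE was 2.65 on the log2 scale, whereas the step from both knockdown lines up to the control lines was 0.69.

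**Figure D1:**
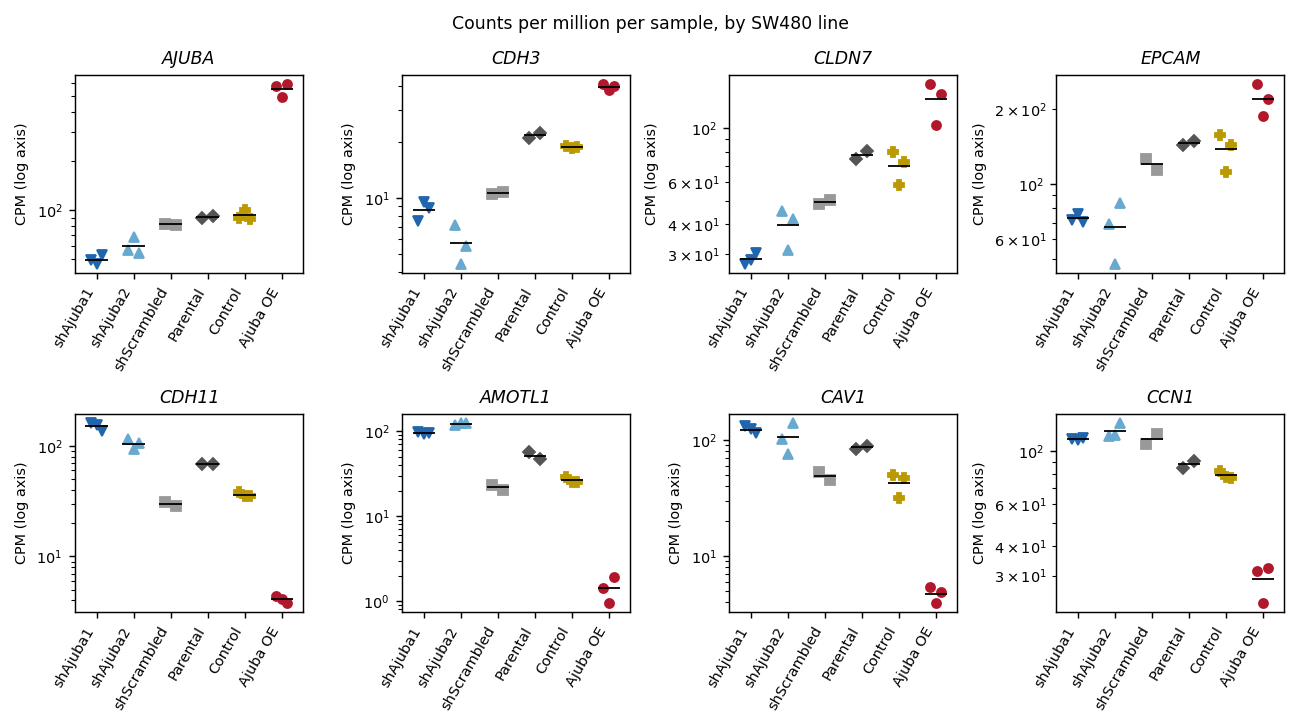
CPM (log axis) of 8 genes in each of the 16 samples, by line, where each symbol is 1 sample and each bar the mean of a line. AJUBA, CDH3, CLDN7 and EPCAM are highest in Ajuba OE, CDH11, AMOTL1, CAV1 and CCN1 are lowest there, and for CDH11 the 3 control lines sit between 29.8 and 68.3 CPM, between both ends.

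Of 22220 genes tested, 5765 were differentially expressed genes (DEG, adjusted p under 0.05) between Ajuba OE and both knockdown lines, or 25.9%. Of these, 2884 were higher and 2881 lower in Ajuba OE, or 13% in each direction. Scaled by library size alone, in place of TMM normalization, 6095 genes were DEG and 32.6% of them were higher, against 50.0% with TMM, and the median log2 fold change of all genes moved by -0.105. Large changes were more often downward, as 1319 DEG were at least 2-fold lower and 747 at least 2-fold higher. Against shAjuba1 alone 5456 genes were DEG (24.6%), and against shAjuba2 alone 5733 (25.8%). Both knockdown lines also differed from each other, with 4327 DEG (19.5%). In 2209 genes (9.94%) every Ajuba OE sample was above every knockdown sample, and in 2357 (10.6%) every one was below. Without sample 2 of Ajuba OE and of shAjuba2, 8814 genes were DEG, 4626 higher and 4188 lower of 22569 tested, so list counts given without this pair have a higher background.

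The named genes are the 12 largest changes in each direction among 1673 DEG that were protein coding, moved the same way against each knockdown line alone, had a mean log2 CPM of at least 1 and showed no overlap between the ends. Their differences at the ends are therefore a description. Besides AJUBA, the higher genes included several that are used in epithelia. CDH3 encodes P-cadherin, a calcium-dependent adhesion protein. Its level was 7.55, 9.53 and 8.83 CPM in shAjuba1, 7.14, 4.42 and 5.53 CPM in shAjuba2 and 41.5, 38.1 and 40.0 CPM in Ajuba OE, a log2 fold change of 2.51 (SE 0.13). ESRP1, a splicing regulator that is specific to epithelial cells, was at 7.76, 6.86 and 7.41 CPM in shAjuba1, 14.8, 11.8 and 13.4 CPM in shAjuba2 and 67.2, 53.2 and 62.5 CPM in Ajuba OE (log2 fold change 2.62, SE 0.10). For both genes the lowest Ajuba OE sample was far above the highest knockdown sample, and for ESRP1 shAjuba2 was above shAjuba1. MPZL2, an adhesion protein of the immunoglobulin superfamily, rose by 2.55 on the log2 scale (SE 0.13).

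The largest positive change belonged to PRSS56, a secreted serine protease, at 1.06, 0.825 and 1.09 CPM in shAjuba1, 1.42, 1.14 and 1.18 CPM in shAjuba2 and 16, 13.7 and 13.6 CPM in Ajuba OE. Its log2 fold change was 3.69 (SE 0.12), and the 3 control lines lay between, with means of 2.94 to 5.40 CPM. SYK, a cytoplasmic tyrosine kinase best known from immune receptor signaling, was at 75.1, 76.5 and 79.0 CPM in shAjuba1, 118, 107 and 129 CPM in shAjuba2 and 825, 771 and 808 CPM in Ajuba OE (log2 fold change 3.07, SE 0.09). In shScrambled, however, SYK was at 37.0 and 36.5 CPM, below all 6 knockdown samples. Nuclear regulators were also among the higher genes. PPARG, a nuclear receptor of lipid metabolism, rose by 2.41 (SE 0.18), SATB1, a chromatin organizer, by 2.45 (SE 0.14), and MBNL3, an RNA-binding splicing regulator, by 2.77 (SE 0.13) on the log2 scale. TNFSF10, which encodes the death receptor ligand TRAIL, rose by 2.51 (SE 0.29), TBC1D8B, which encodes a protein with a Rab GTPase activating domain, by 2.50 (SE 0.11), and KANK4, of a family that regulates actin, by 2.44 (SE 0.15).

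The lower genes changed more than the higher ones did, from -4.27 to -6.24 on the log2 scale. The mean log2 CPM required of a named gene was taken over 9 samples, of which 6 were knockdown samples. A gene near 0 in Ajuba OE could therefore pass more easily than a gene near 0 in the knockdown lines. The sizes in each direction are thus a description. AMOTL1 encodes an angiomotin family protein that binds YAP and localizes to junctions. It was at 97.9, 91.7 and 95.8 CPM in shAjuba1, 118, 125 and 126 CPM in shAjuba2 and 1.44, 0.954 and 1.93 CPM in Ajuba OE (log2 fold change -6.24, SE 0.20). CDH11, a cadherin of mesenchymal cells, was at 162, 153 and 138 CPM in shAjuba1, 114, 93.7 and 106 CPM in shAjuba2 and 4.38, 4.10 and 3.80 CPM in Ajuba OE (log2 fold change -4.94, SE 0.13). CAV1, the coat protein of caveolae, was at 131, 124 and 115 CPM in shAjuba1, 102, 75.7 and 141 CPM in shAjuba2 and 5.46, 3.95 and 4.86 CPM in Ajuba OE (log2 fold change -4.59, SE 0.22). In each of these genes every Ajuba OE sample was below every other sample of the series. ALPK2, an alpha-kinase, fell by 5.6 (SE 0.13), and PDE4B, which degrades cyclic AMP, fell by 4.84 (SE 0.20) on the log2 scale. ITIH3, a heavy chain of the inter-alpha-trypsin inhibitors that bind hyaluronan, fell by 4.48 (SE 0.17).

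GREM1, a secreted antagonist of bone morphogenetic proteins, was at 2.58, 2.61 and 2.10 CPM in shAjuba1, 15.3, 13.9 and 19.7 CPM in shAjuba2 and 0.209, 0.200 and 0.185 CPM in Ajuba OE (log2 fold change -4.96, SE 0.21). ADGRF1, an adhesion G protein-coupled receptor, was at 7.51, 9.43 and 7.76 CPM in shAjuba1, 78.8, 104 and 93.7 CPM in shAjuba2 and 0.927, 0.710 and 1.06 CPM in Ajuba OE (log2 fold change -4.94, SE 0.17). Both genes were lower in Ajuba OE than in either knockdown line, although shAjuba2 was far above shAjuba1. HSD17B2, which oxidizes estradiol, fell by 4.32 (SE 0.25) and ANXA1, a phospholipid-binding annexin, by 4.27 (SE 0.21) on the log2 scale. OLR1, a receptor for oxidized LDL, fell by 5.03 (SE 0.19), and TMEM52B, which encodes a membrane protein, by 6.16 (SE 0.19). OLR1 (chromosome 12, positions 10158301 to 10172138, minus strand) and TMEM52B (chromosome 12, positions 10170542 to 10191804, plus strand) overlap on opposite strands, and since the strand setting of the counting is not given, they may share reads. In all, 7 of the 24 named genes overlap a tested gene on the other strand.

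For 13 of the 24 named genes the mean of each of the 3 control lines lay between the Ajuba OE mean and both knockdown means, 8 of 12 higher and 5 of 12 lower. AJUBA, which was manipulated to set the dose, is among the 12 higher genes. It is included in every count of named genes here and below. The same held for 727 of the 1673 genes they were chosen from (43.5%), for 1558 of all DEG (27.0%) and for 1942 of all genes tested (8.74%). A wide gap between the ends leaves more room for a control line, so these shares are a description. Among the higher genes Control and Parental lay between in 12 of 12 and shScrambled in 8. Among the lower genes Control lay between in 9 of 12, shScrambled in 8 and Parental in 5. All 7 control samples lay between the ends in 6 higher genes (AJUBA, PRSS56, ESRP1, CDH3, TBC1D8B and PPARG) and in 4 lower ones (AMOTL1, ALPK2, CDH11 and ITIH3).

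**Figure D2:**
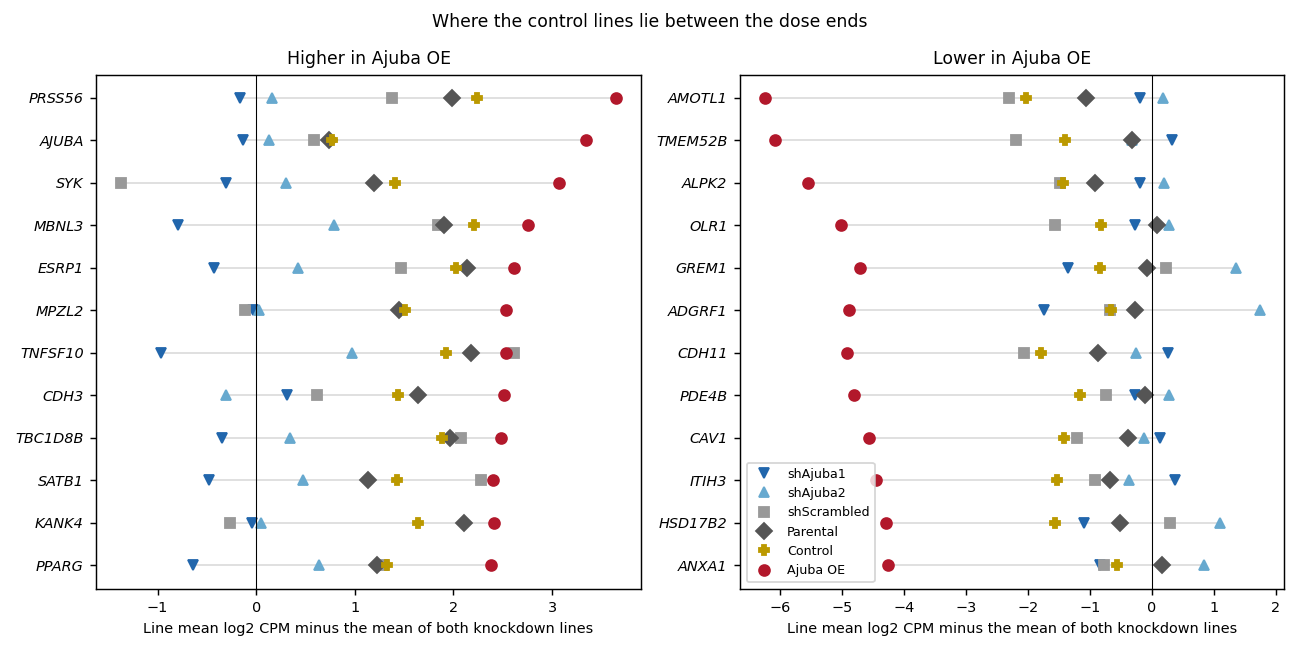
Mean log2 CPM of each line minus the mean of both knockdown lines (0 on the horizontal axis) for the 12 named genes with the largest positive change, left, and the 12 with the largest negative change, right. Control lines are spread along the whole span for the higher genes but crowd toward the knockdown end for the lower genes, and shScrambled lies to the left of both knockdown lines for SYK, MPZL2 and KANK4.

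The 11 exceptions were of a few kinds. SYK, MPZL2 and KANK4 had shScrambled below the knockdown lines, with a mean of 78.7 CPM for MPZL2 and 0.938 CPM for KANK4. TNFSF10 had shScrambled slightly above Ajuba OE, at 12.8 and 16.5 CPM against 16.4, 10.1 and 15.8 CPM. For TMEM52B, OLR1 and PDE4B it was Parental that reached the level of a knockdown line. For GREM1, ADGRF1, HSD17B2 and ANXA1 the knockdown lines were so far apart that 1 or more control lines lay between them.

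The size of each step differed by direction. In all 12 lower genes the step from Ajuba OE to the control lines was larger than the step from the control lines to the knockdown lines, with medians of -4.21 and -0.90 on the log2 scale. In the higher genes the upper step was the larger in 5 of 12, with medians of 1.2 and 1.46. Both steps use the same 7 control samples and were fitted on all 16 samples. Over all 23597 genes of that fit, 3852 (16.3%) were DEG between Ajuba OE and the control lines and 6400 (27.1%) between the control and knockdown lines. Of the named genes, TNFSF10 did not pass the upper step (0.32, adjusted p = 0.436 by edgeR) and GREM1 did not pass the lower step (-0.24, adjusted p = 0.0744).

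Since the ends carry different vectors, each was also set against the control of its own construct, as Ajuba OE minus Control less the mean of the knockdown lines minus shScrambled. By this measure 3298 of 23597 genes tested were DEG in the edgeR fit of 16 samples, 1748 higher and 1550 lower. Of these DEG, 2455 were also DEG between the ends. List counts given with the construct controls therefore have a lower background. All 12 lower genes passed, and so did 10 of 12 higher genes, AJUBA included. SYK kept only 0.29 on the log2 scale (adjusted p = 0.131) and KANK4 0.48 (adjusted p = 0.229), and neither passed. MPZL2 passed at 0.91 in place of 2.55, and HSD17B2 at -2.44 in place of -4.32. AJUBA stayed at 3.16, and AMOTL1, at -6.51, was no smaller than between the ends.

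**Figure D3:**
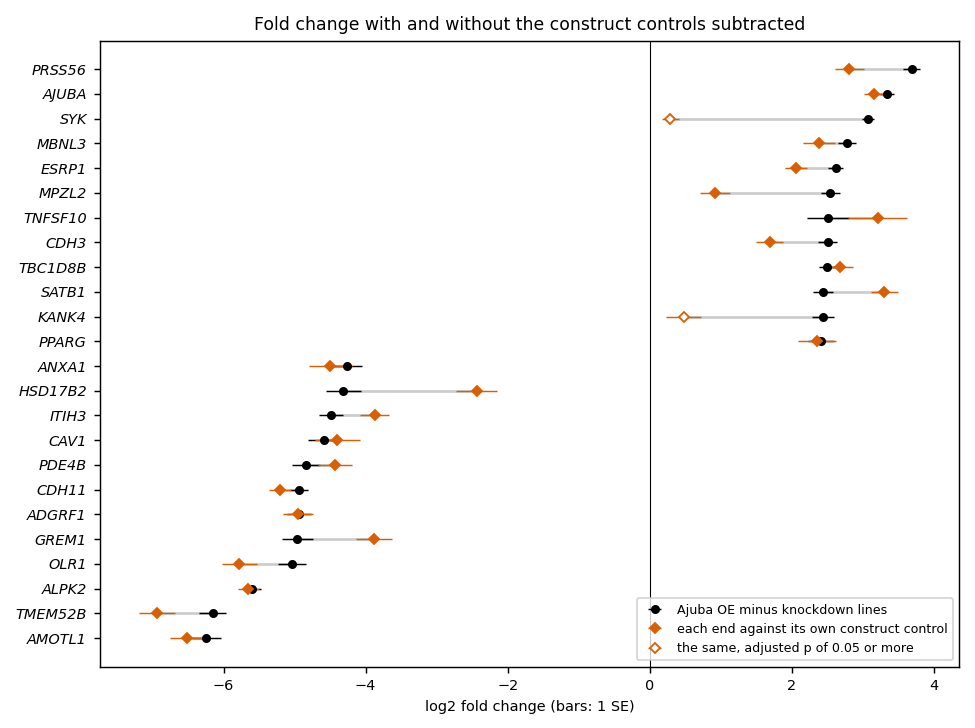
log2 fold change (bars, 1 SE) of the 24 named genes between Ajuba OE and both knockdown lines (black) and with each end set against its own construct control (orange, open where the adjusted p is 0.05 or more). SYK moves from 3.07 to 0.29, whereas CDH11 (-4.94 and -5.21) and PPARG (2.41 and 2.36) barely move.

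Ajuba belongs to a family with LIMD1, WTIP, zyxin and related LIM proteins. Of 7 members tested 2 were higher and 3 lower (background 13% each way), or 1 lower with the construct controls. The higher members were AJUBA itself and FBLIM1 (log2 fold change 0.50, SE 0.09). WTIP, among the closest relatives of Ajuba, was at 50.1, 50.5 and 70.6 CPM in shAjuba1, 46.7, 43.8 and 41.9 CPM in shAjuba2 and 21.8, 20.4 and 18.1 CPM in Ajuba OE. It fell by 1.32 (SE 0.13), opposite to AJUBA, and the control lines lay between. ZYX fell by 0.69 (SE 0.11). LIMD1 gave -0.07 (SE 0.10, adjusted p = 0.652 by edgeR) and did not pass.

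Among 24 Hippo kinases, adaptors and YAP-TEAD factors, 4 were higher and 8 lower (background 13% each way), and their median was -0.04 on the log2 scale, against 0.01 over all genes tested. Without sample 2 of Ajuba OE and of shAjuba2, 10 were higher and 10 lower, and with the construct controls 3 were higher and 5 lower. The median turned positive without shAjuba2 1 or Ajuba OE 2. Of the core kinases STK3, STK4, LATS1 and LATS2, only LATS2 passed, at -0.49 (SE 0.09). The coactivator genes YAP1 and WWTR1, which encodes TAZ, did not, at 0.22 (SE 0.11) and 0.22 (SE 0.13). Of the 4 TEAD genes, TEAD2, TEAD3 and TEAD4 fell, by 0.35 to 0.59. FRMD6, a FERM domain activator of the pathway, was at 138, 137 and 114 CPM in shAjuba1, 161, 129 and 161 CPM in shAjuba2 and 22.6, 18.2 and 18.0 CPM in Ajuba OE (log2 fold change -2.83, SE 0.14). The lowest 2 members were AMOTL1 and FRMD6, and the highest 2 were TAOK3, a kinase upstream of the pathway (log2 fold change 0.70, SE 0.10), and MOB1B, a LATS cofactor, whose samples overlapped between the ends (log2 fold change 0.31, SE 0.10).

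Of 22 genes that YAP and TAZ are known to activate, 15 were lower and 1 higher in Ajuba OE, against 13% each way among all genes, and the median log2 fold change was -0.80. Against shAjuba1 alone 15 were lower, against shAjuba2 alone 14, and with each end set against its construct control 12, with 1 higher each time. Without the pair of sample 2, 18 were lower and 2 higher. CCN1, which encodes a secreted matricellular protein and is among the standard readouts of YAP activity, was at 112, 112 and 113 CPM in shAjuba1, 116, 117 and 132 CPM in shAjuba2 and 31.3, 23 and 32.4 CPM in Ajuba OE (log2 fold change -2.02, SE 0.12). Its 3 control lines had means of 79.3 to 112 CPM, the highest of them, shScrambled, level with shAjuba1. CCN2, its close relative, was at 15.6, 13.7 and 17.0 CPM in shAjuba1, 20.6, 19.5 and 21.7 CPM in shAjuba2 and 7.13, 5.50 and 7.21 CPM in Ajuba OE (log2 fold change -1.43, SE 0.12). CCN2 did not form a ladder, as the control line means lay between or above those of the knockdown lines, and its lower step was 0.39. The lowest members by the naming rule were RBMS3, an RNA-binding protein gene, and ARHGEF17. RBMS3 was at 0.146, 0.264 and 0.0272 CPM in shAjuba1, 1.63, 1.81 and 1.26 CPM in shAjuba2 and 0, 0.0665 and 0.0264 CPM in Ajuba OE, so only shAjuba2 stood clear of Ajuba OE. ARHGEF17, a guanine nucleotide exchange factor, fell by 2.56 (SE 0.19). The highest were IGFBP3, a binding protein for insulin-like growth factors (log2 fold change 1.12, SE 0.11), and CCDC80, a matrix protein, which had the least negative change among the DEG (log2 fold change -0.38, SE 0.12). ANKRD1, another standard YAP target, gave 0.25 (SE 0.12, adjusted p = 0.137 by edgeR) and did not pass. CCN1, CCN2, ANKRD1 and the genes printed next were picked after their values were seen.

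TEAD factors bind the core motif GGAATG, so the 250 bases before the RefSeq start of these genes were searched for it on both strands (GGAATG or CATTCC). Promoters of 16 of the 22 genes were in the table used. The motif was in 6 of them, whereas 11.9% of 27305 promoters of the same length held it. Of the 6 genes with it 4 were lower, and of the 10 without it 7 were lower. ANKRD1 and FOXF2 held it and were not DEG. At least 2 copies were found in 3 of the 16 and in 0.963% of all promoters. The 5 promoters shown are those of 4 lower genes and, for contrast, ANKRD1, in lower case 5′ to 3′ toward the gene with the motif in capitals (GRCh38.p14).
CCN2 (chr6:131951373-131951622, minus strand): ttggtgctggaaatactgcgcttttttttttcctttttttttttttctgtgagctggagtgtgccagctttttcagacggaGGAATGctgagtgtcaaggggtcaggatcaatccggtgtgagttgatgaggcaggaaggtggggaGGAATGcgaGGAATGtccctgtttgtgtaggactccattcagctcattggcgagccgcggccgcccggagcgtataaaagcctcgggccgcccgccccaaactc
NUAK2 (chr1:205321746-205321995, minus strand): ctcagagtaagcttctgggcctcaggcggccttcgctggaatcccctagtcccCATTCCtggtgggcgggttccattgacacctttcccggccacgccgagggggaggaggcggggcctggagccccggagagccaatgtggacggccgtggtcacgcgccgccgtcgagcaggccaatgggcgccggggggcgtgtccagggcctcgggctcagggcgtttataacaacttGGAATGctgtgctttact
PTPN14 (chr1:214551603-214551852, minus strand): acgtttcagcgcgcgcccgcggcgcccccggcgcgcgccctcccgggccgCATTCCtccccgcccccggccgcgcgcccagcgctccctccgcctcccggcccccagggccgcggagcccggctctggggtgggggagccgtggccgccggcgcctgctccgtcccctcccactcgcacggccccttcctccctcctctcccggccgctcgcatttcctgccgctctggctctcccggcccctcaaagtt
TGFB2 (chr1:218345086-218345335, plus strand): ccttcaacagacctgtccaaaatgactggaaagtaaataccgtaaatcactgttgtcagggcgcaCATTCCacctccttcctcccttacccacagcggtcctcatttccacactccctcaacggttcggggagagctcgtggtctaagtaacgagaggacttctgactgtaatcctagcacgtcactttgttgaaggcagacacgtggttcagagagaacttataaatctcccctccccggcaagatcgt
ANKRD1 (chr10:90921088-90921337, minus strand): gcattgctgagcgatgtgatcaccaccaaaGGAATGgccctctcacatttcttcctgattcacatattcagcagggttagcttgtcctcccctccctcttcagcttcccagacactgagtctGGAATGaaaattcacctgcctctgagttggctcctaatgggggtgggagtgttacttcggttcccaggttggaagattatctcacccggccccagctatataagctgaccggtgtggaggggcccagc
The CCN2 promoter held 3 copies, starting 169, 104 and 95 bases before the start, and NUAK2 held 2, starting 197 and 18 bases before it. PTPN14 and TGFB2 held 1 copy each. PTPN14, a phosphatase that restrains YAP, was at 257, 258 and 246 CPM in shAjuba1, 318, 339 and 321 CPM in shAjuba2 and 112, 114 and 123 CPM in Ajuba OE (log2 fold change -1.31, SE 0.09). TGFB2, a ligand of the TGF-beta family, fell by 2.12 (SE 0.13). NUAK2, a kinase related to AMPK, fell by 0.73 (SE 0.13), but only shAjuba1 was high, with a mean of 15.9 CPM against 6.32 in shAjuba2 and 6.05 in Ajuba OE. ANKRD1 held 2 copies and was not a DEG. A match is a description of the letters, and binding was not measured.

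Of 18 adherens junction genes, 5 were higher and 7 lower, against 13% each way among all genes. Without the pair of sample 2, 8 were higher, and with the construct controls 3 were lower. Among the cadherins, E-cadherin and P-cadherin were higher, while CDH11, CDH4 and CDH17 were lower. The other lower members were CTNNA2, PLEKHA7, NECTIN1 and NECTIN2. CDH1, which encodes E-cadherin, was at 12.4, 13.4 and 14.6 CPM in shAjuba1, 6.69, 3.89 and 4.45 CPM in shAjuba2 and 36.4, 28.9 and 38 CPM in Ajuba OE (log2 fold change 2.07, SE 0.15). Parental and Control lay between, at 23.2 and 19.97 CPM, but shScrambled, at 7.97 CPM, was as low as the knockdown lines. With each end set against its construct control the change of CDH1 fell to 0.75 (adjusted p = 0.0419 by edgeR). CDH17, an intestinal cadherin, was the second lowest member, with means of 0.987 and 1.17 CPM in the knockdown lines (log2 fold change -2.67, SE 0.26). The actin-binding partner LIMA1 rose by 1.50 (SE 0.13), and the control lines were close to Ajuba OE, with means of 84.2 to 85.9 CPM against 98.6. The catenins CTNNA1 and CTNNB1 gave 0.11 and 0.17 and did not pass.

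Of 16 tight junction genes, 9 were higher and 3 lower (background 13% each way), and the median was 0.43. Without the pair of sample 2, 5 were lower, and with the construct controls 0 were lower by edgeR. CLDN7, a claudin of colon epithelium, was at 27.5, 28.3 and 30.5 CPM in shAjuba1, 45.2, 31.2 and 42.2 CPM in shAjuba2 and 153, 103 and 139 CPM in Ajuba OE (log2 fold change 1.96, SE 0.14). All 7 control samples lay between, from 48.6 to 80.8 CPM. MARVELD3, a membrane protein of the tight junction, rose by 1.79 (SE 0.11). The lowest members were the cingulin family genes CGNL1 (log2 fold change -1.78, SE 0.30) and CGN (log2 fold change -0.69, SE 0.15). CGNL1 turned to 1.28 with each end set against its construct control (adjusted p = 0.0355 by edgeR). The plasma membrane proteins OCLN and F11R rose by 0.90 (SE 0.15) and 1.01 (SE 0.13), each with the control lines between.

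The 7 epithelial marker genes were all higher on average, and 6 passed (background 13% each way), with a median of 1.55. EPCAM, an epithelial adhesion molecule, was at 71.8, 75.8 and 70.7 CPM in shAjuba1, 69.3, 47.9 and 84.1 CPM in shAjuba2 and 253, 186 and 218 CPM in Ajuba OE (log2 fold change 1.65, SE 0.15). VIL1, an actin bundler of the brush border, was at 18.6, 19.1 and 25.2 CPM in shAjuba1, 12.2, 8.80 and 10.7 CPM in shAjuba2 and 61.6, 56.0 and 56.3 CPM in Ajuba OE (log2 fold change 1.96, SE 0.12). CDX2, the intestinal homeobox factor, rose by 1.55 (SE 0.12). EPCAM, VIL1 and CDX2 each had the 3 control lines between. Against shAjuba1 alone 4 of 7 markers passed, and with the construct controls 4, with a median of 0.75. shScrambled had a median of only 0.17 over the knockdown lines for these markers. In bulk samples a shift in the share of cells that express a gene cannot be told apart from a change in RNA per cell.

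Other genes of intestinal differentiation did not move as one. Of 13 tested 5 were higher and 2 lower (background 13% each way), and a further 17 were too low to test. Beside VIL1, the highest was ALPI, intestinal alkaline phosphatase, at a mean of 0.320 CPM in Ajuba OE and at most 0.0908 in a knockdown line (log2 fold change 2.19, SE 0.42). With the construct controls it gave -1.12 (adjusted p = 0.624 by edgeR) and did not pass. ANPEP, a brush border peptidase, and KLF4, a differentiation factor, fell by 2.84 (SE 0.37) and 0.95 (SE 0.11).

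Of 15 genes of epithelial-mesenchymal transition, 4 were higher and 6 lower (background 13% each way), and with the construct controls 4 and 2. ZEB1, a repressor of epithelial genes, was at 29.4, 31.2 and 28.4 CPM in shAjuba1, 30.8, 36.0 and 32.1 CPM in shAjuba2 and 12.5, 11.2 and 11.7 CPM in Ajuba OE (log2 fold change -1.40, SE 0.09), with all 7 control samples between. SPARC, a matrix glycoprotein, fell by 1.91 (SE 0.19) but gave 0.05 with the construct controls. In the other direction, SNAI1, a factor that Ajuba binds as a corepressor, was at 3.16, 2.41 and 2.64 CPM in shAjuba1, 1.61, 1.79 and 1.99 CPM in shAjuba2 and 7.18, 3.86 and 3.57 CPM in Ajuba OE (log2 fold change 1.14, SE 0.21). It did not form a ladder and did not pass with the construct controls (0.66, adjusted p = 0.301 by edgeR). TGFBI, a matrix protein induced by TGF-beta, rose by 1.14 (SE 0.08), with the control lines between.

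Of 28 collagens and laminins, 17 were lower and 4 higher (background 13% each way), and the median was -0.72. LAMA4, a laminin chain of mesenchymal and vascular basement membranes, was at 0.520, 0.330 and 0.463 CPM in shAjuba1 and 0.488, 0.335 and 0.413 CPM in shAjuba2, and had a single read pair in the 3 Ajuba OE samples together (adjusted p = 4.97e-05 by edgeR). COL6A2, a chain of collagen VI, was at 5.97, 6.13 and 6.97 CPM in shAjuba1, 4.09, 3.80 and 2.38 CPM in shAjuba2 and 1.21, 0.909 and 0.792 CPM in Ajuba OE (log2 fold change -2.23, SE 0.21). LAMA3 and LAMB3, chains of the laminin of epithelial attachment, went the other way. LAMA3 was at 42.7, 42.9 and 41.5 CPM in shAjuba1, 37.7, 41.0 and 34.4 CPM in shAjuba2 and 115, 113 and 123 CPM in Ajuba OE (log2 fold change 1.55, SE 0.08), and LAMB3 rose by 0.64 (SE 0.08). With the construct controls 8 members were lower and 3 higher, and LAMA3 passed (1.04, adjusted p = 1.93e-05 by edgeR), whereas LAMB3 did not (0.20, adjusted p = 0.25).

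Integrins, the receptors for these matrix proteins, were also mixed, with 4 of 12 higher and 3 lower (background 13% each way). ITGB6, an integrin chain of epithelia, was at 0.894, 0.693 and 0.681 CPM in shAjuba1, 1.32, 1.23 and 1.04 CPM in shAjuba2 and 3.75, 2.82 and 4.25 CPM in Ajuba OE (log2 fold change 1.91, SE 0.17), with all 7 control samples between. ITGB8 rose by 1.55 (SE 0.14). ITGB3 fell by 3.90 (SE 0.40) from means of 0.685 to 0.777 CPM, and ITGA1 fell by 1.00 (SE 0.09), but ITGA1 was at 34.5 CPM in shAjuba1, below the 47.6 CPM of Ajuba OE, and at 264 CPM in shAjuba2. The ITGA1 value thus rests on 1 knockdown line. Of 24 actin filament genes 5 were higher and 3 lower, or 20.8% and 12.5% against 13% each way among all genes. Without the pair of sample 2, 10 were higher, and with the construct controls 3. TPM1, a tropomyosin of stress fibers, was at 106, 105 and 100 CPM in shAjuba1, 77.8, 64.3 and 86.2 CPM in shAjuba2 and 18.7, 17.6 and 19.2 CPM in Ajuba OE (log2 fold change -2.27, SE 0.11). TPM2 fell by 1.24 (SE 0.19), whereas ACTN4, an actin crosslinker, and TPM4 rose by 0.70 (SE 0.09) and 0.56 (SE 0.14).

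**Figure D4:**
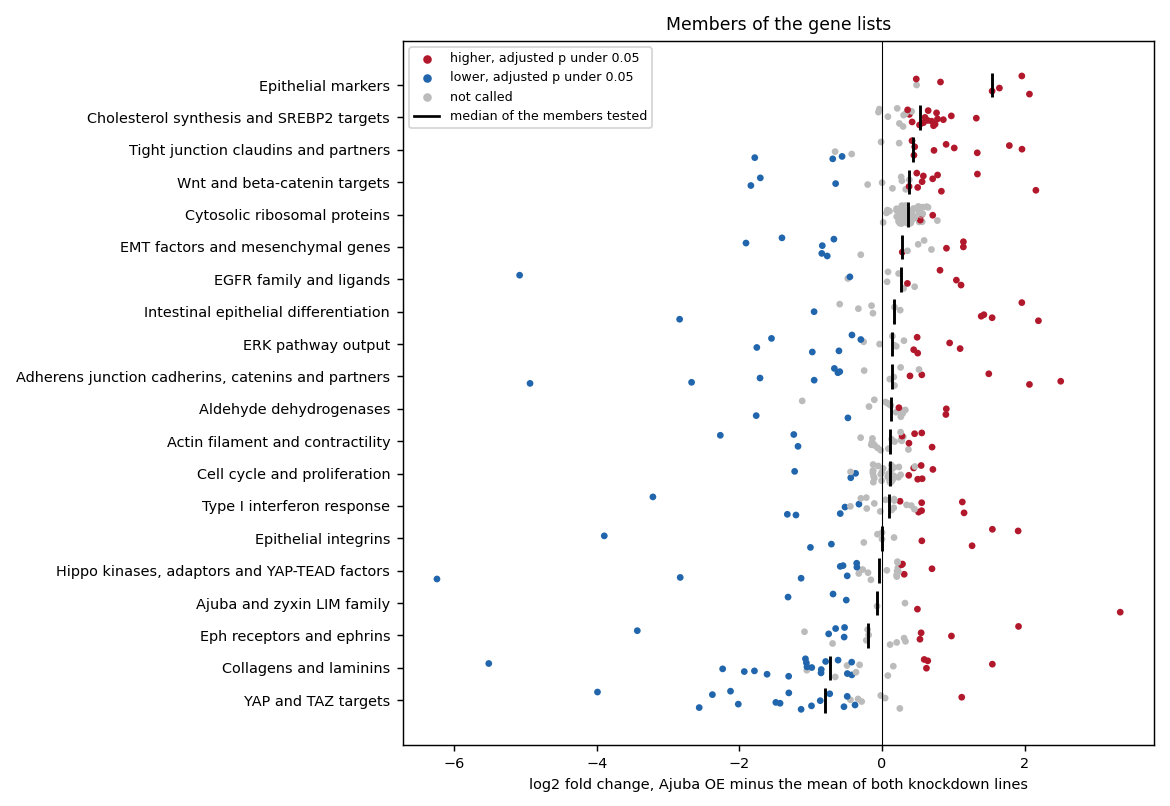
log2 fold change between Ajuba OE and both knockdown lines for each tested member of 19 pathway lists and the epithelial markers, 1 point per gene, red or blue where the adjusted p was under 0.05, with the list median as a black bar. YAP and TAZ targets (-0.80) and collagens and laminins (-0.72) have the lowest medians, and epithelial markers (1.55) and cholesterol genes (0.53) the highest.

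Of 20 targets of Wnt and beta-catenin signaling, 10 were higher and 3 lower (background 13% each way), with a median of 0.38. ASCL2, a factor of crypt stem cells, was at 8.78, 9.33 and 13.7 CPM in shAjuba1, 10.2, 8.94 and 10.6 CPM in shAjuba2 and 49.0, 49.6 and 38.7 CPM in Ajuba OE (log2 fold change 2.16, SE 0.14). TNFRSF19 rose by 1.34 (SE 0.12), whereas DKK1, a Wnt antagonist, fell by 1.84 (SE 0.16) and SOX4 by 1.71 (SE 0.09). shScrambled was low for many of these genes, at 6.48 and 6.77 CPM for ASCL2, and with the construct controls 3 members were higher and 3 lower, with a median of 0.08. ASCL2 then gave 0.74 (adjusted p = 0.027 by edgeR).

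Among 12 receptors and ligands of the EGFR family 4 were higher and 2 lower (background 13% each way). With the construct controls 2 were higher and 1 lower, and 1 was lower without the pair of sample 2. NRG1, a ligand of ERBB3, was at 0.499, 0.627 and 0.327 CPM in shAjuba1, 7.67, 6.30 and 8.56 CPM in shAjuba2 and 0.0448, 0.0665 and 0.0528 CPM in Ajuba OE (log2 fold change -5.08, SE 0.32), and its level in the control lines was between those of the knockdown lines. ERBB3 itself was at 24.5, 25.8 and 26.0 CPM in shAjuba1, 36.7, 32.3 and 29.0 CPM in shAjuba2 and 60.6, 61.7 and 55.8 CPM in Ajuba OE (log2 fold change 1.04, SE 0.09), with the control lines between. The ligand genes EGF and HBEGF gave 1.11 (SE 0.34) and -0.45 (SE 0.14). EGFR rose by 0.36 (SE 0.11) and overlapped between the ends. Of 17 genes downstream of ERK, 5 were higher and 6 lower (background 13% each way), or 2 and 2 with the construct controls. Their DEG ranged from ETV1 (log2 fold change -1.76, SE 0.13) and SPRED3 (log2 fold change -1.55, SE 0.18) to IER3 (log2 fold change 0.95, SE 0.11) and EGR1 (log2 fold change 1.1, SE 0.10).

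Of 18 Eph receptors and ephrins, 4 were higher and 5 lower (background 13% each way). EPHB6, an Eph receptor without kinase activity, was at 40.4, 41.5 and 47.7 CPM in shAjuba1, 51.9, 58.5 and 46.9 CPM in shAjuba2 and 164, 207 and 166 CPM in Ajuba OE (log2 fold change 1.92, SE 0.10), while its control lines were at the level of the knockdown lines. EPHA1 rose by 0.97 (SE 0.12) and EPHB1 fell by 3.43 (SE 0.39). EPHA2 showed the reverse of EPHB6, with 304, 290 and 339 CPM in shAjuba1, 248, 309 and 251 CPM in shAjuba2 and 154, 195 and 168 CPM in Ajuba OE (log2 fold change -0.75, SE 0.12), and control line means of 171 to 187 CPM, close to Ajuba OE.

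Of 25 genes of cholesterol synthesis and its regulator SREBP2, 16 were higher and 0 lower (background 13% each way), with a median of 0.53. The edgeR test gave no lower member also with the construct controls, and DESeq2 gave 0 as well. INSIG1, a retention factor of the SREBP pathway, was at 19.5, 19.7 and 18.3 CPM in shAjuba1, 75.3, 30.3 and 48.2 CPM in shAjuba2 and 101, 60.3 and 74.4 CPM in Ajuba OE, the largest change of the list (log2 fold change 1.32, SE 0.23). shAjuba1 was below every Ajuba OE sample, whereas shAjuba2 overlapped with Ajuba OE. The next largest was in MSMO1, a demethylating enzyme (log2 fold change 0.97, SE 0.25), and the smallest among the DEG were in SREBF2 (log2 fold change 0.36, SE 0.09) and MVK (log2 fold change 0.38, SE 0.12). The summed level of the list was 2319 to 3033 CPM in Ajuba OE, 1794 to 1853 in shAjuba1 and 1827 to 2502 in shAjuba2, and sample 2, with the high mitochondrial share, had the lowest sum in both Ajuba OE and shAjuba2. Against shAjuba2 alone 8 members passed, against 17 for shAjuba1.

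Cytosolic ribosomal proteins were positive in 79 of 79 members with a median of 0.37. Only RPL4, RPL7 and RPL23 passed (background 13% each way), with rises of 0.54 to 0.71. Without sample 2 of Ajuba OE and of shAjuba2, the samples with the lowest ribosomal sums of their lines, 62 passed and the median was 0.44. Of 13 proteins of the mitochondrial genome 1 passed (5 without the pair, 4 of them lower), and of 3 nuclear retained RNAs 0 by edgeR, also at an unadjusted p under 0.05, and 0 by DESeq2. The part of RNA quality in these results was not tested.

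Of 38 cell cycle genes, 6 were higher and 3 lower, or 15.8% and 7.89% against 13% each way among all genes. Without the pair of sample 2, 10 were higher and 4 lower. The balance turned against shAjuba1 alone, with 3 higher and 4 lower, and with the construct controls, with 2 higher and 5 lower. MCM3, a subunit of the replicative helicase, and CCND2 rose by 0.71 (SE 0.08) and 0.56 (SE 0.10). The inhibitor gene CDKN2B fell by 1.22 (SE 0.09) and CCNE1 by 0.44 (SE 0.10). MKI67, the gene of the proliferation marker Ki-67, gave 0.24 (SE 0.08) and did not pass. Of 26 genes of the type I interferon response, 6 were higher and 6 lower (background 13% each way), or 7 and 2 with the construct controls. Their DEG were led by IFI27 (log2 fold change 1.15, SE 0.21) and OAS2 (log2 fold change 1.13, SE 0.09) and by CMPK2 (log2 fold change -1.33, SE 0.21) and XAF1. The mean of XAF1 was 0.0198 CPM in Ajuba OE, 0.0895 in shAjuba2 and 0.488 in shAjuba1. The median of this list, 0.09, and that of the integrins, 0.00078, turned negative when samples were scaled by library size alone. Of 17 aldehyde dehydrogenases, 3 were higher and 2 lower, or 17.6% and 11.8%, near the 13% each way of all genes. Without the pair of sample 2, 6 were higher, and with the construct controls 4 were higher and 0 lower by edgeR. ALDH1A3 and ALDH3A1, which contribute to the ALDH activity used to mark stem-like tumor cells, rose by 0.90 (SE 0.10) and 0.90 (SE 0.09), and ALDH1A2 and ALDH16A1 fell by 1.76 (SE 0.38) and 0.48 (SE 0.10). NFATC2, which the study discussed from earlier work, rose by 0.46 (SE 0.12). RPS6, the gene of ribosomal protein S6, did not pass (log2 fold change 0.63, SE 0.38). For S6 the study measured the phosphorylated protein, which the level of RNA does not show.

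Markers of other cell types were low, and their part in the results above was not tested. The background for the counts below was 13% each way, and few genes of each list could be tested. Of 7 fibroblast markers 3 could be tested and all 3 were lower, with a summed level of 6.52 to 11.2 CPM in Ajuba OE, 18.2 to 37.4 CPM in the knockdown lines and 15.6 to 24.4 CPM in the control lines. PDGFRB, the receptor for platelet-derived growth factor, fell by 4.02 (SE 0.17) from means of 5.99 and 9.35 CPM. COL3A1, DCN and LUM, which define fibroblasts, were at 0 in every Ajuba OE sample and at most at 0.140 CPM on average in a knockdown line. Leukocyte markers summed to 5.52 to 8.15 CPM in Ajuba OE and 3.26 to 4.01 in the knockdown lines, with 3 of 5 tested higher (CD3E and LYZ among them), or 1 with the construct controls, and the defining PTPRC and MS4A1 were at 0 in Ajuba OE. Endothelial markers summed to 2.74 to 3.04 and 2.27 to 3.05 CPM, with 1 of 2 tested lower (PECAM1), and CDH5, KDR and TEK were at 0 in Ajuba OE.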

How the data were processed

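RNA was sequenced from 6 SW480 lines in 16 samples. Per the labels and the study's methods, the authors made stranded poly(A) libraries, sequenced them in pairs on a NovaSeq, aligned them to GRCh38 (hg38) with HISAT2 and counted read pairs per gene with featureCounts. The deposited values are raw counts of 66023 genes. Versions, the annotation and the strand setting are not given in the sources used here.

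Identifiers were matched to GENCODE 44, which held 56434 of the genes and 99.8% of counts. Genes passed a filter on low counts by line (filterByExpr), samples were scaled by TMM, and the contrast of Ajuba OE with the mean of both knockdown lines was tested by the quasi-likelihood test of edgeR 4.0.16 (R 4.3.3) on the 9 samples, with Benjamini-Hochberg adjustment over all genes tested and a threshold of 0.05. Steps to the control lines were fitted on all 16 samples. Log2 CPM used a prior count of 2. On simulated counts of 22220 genes, this test called 95.8% and 100% of genes changed by -2 and 2 on the log2 scale, 70.8% and 80% of genes changed by -1 and 1, and 0.0465% of unchanged genes. The simulated samples were independent, with no shift shared between samples and no difference between the knockdown lines. These rates therefore need not hold for the real samples. Promoters came from RefSeq (GRCh38.p14).

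The text names the 12 largest changes in each direction among eligible DEG, and in each list the 2 highest and 2 lowest DEG. It also names genes that the study followed by protein or discussed. Other genes named within a list were chosen after their values were seen. The members and lists were chosen with earlier results of these data known. Numbers of samples were not taken to pair them. Same-numbered samples deviated together, with a correlation over 0.1, in 2 of 9 pairs. Both were of Ajuba OE with shAjuba2, at 0.17 for sample 1 and 0.483 for sample 2. The value of sample 1 was below the 0.347 of Ajuba OE 1 with shAjuba2 3, which do not share a number. A shift shared by sample 2 of these lines remains. Alternatives were DESeq2 1.42.0, other scalings and filters, thinned counts, all 16 samples in 1 fit, construct controls and leaving out samples. Precision is limited by 2 or 3 samples a line and, for genes near 0, by counting error. Some genes are not reported here.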

Additional observations from a re-analysis of the deposited data

Results flagged for a closer look

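For 18 of the 24 named genes the change from the low to the high dose differed with the knockdown line used as the low end. The difference of both contrasts is shAjuba1 minus shAjuba2, each of which rests on the same Ajuba OE samples, and edgeR tested it by quasi-likelihood over 22220 genes, with p-values adjusted by Benjamini-Hochberg. Between both knockdown lines 19.5% of all genes were DEG, and the named genes were chosen for the size of their change, so their share is not a result about them. By the rule that chose it, each gene moved the same way against both lines.

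Among the genes higher in Ajuba OE, shAjuba1 minus shAjuba2 on the log2 scale was -0.61 for SYK, -1.59 for MBNL3, -0.85 for ESRP1, -2.14 for TNFSF10, -0.71 for TBC1D8B, -0.997 for SATB1 and -1.32 for PPARG, so that shAjuba1 was the lower of the lines. For TNFSF10 the change was 3.58 against shAjuba1 and 1.44 against shAjuba2. Among the genes lower in Ajuba OE, the same difference was -0.39 for ALPK2, -0.56 for OLR1, -2.74 for GREM1, -3.48 for ADGRF1, -0.56 for PDE4B, -2.22 for HSD17B2 and -1.69 for ANXA1, with shAjuba2 the higher of the lines. ADGRF1, the adhesion receptor gene, had the widest gap, with changes of -3.20 against shAjuba1 and -6.68 against shAjuba2. GREM1 followed with -3.59 against shAjuba1 and -6.33 against shAjuba2. The sign was the opposite in the other genes, with 0.60 for CDH3, 0.65 for TMEM52B, 0.53 for CDH11 and 0.75 for ITIH3.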

How the results depend on the processing

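AJUBA was 3.16 (construct controls) to 3.47 higher on the log2 scale in Ajuba OE than in both knockdown lines under every alternative run. Of 24 named genes, AJUBA included, 13 to 15 had the control lines between. The count of DEG between the ends, 5765, was 3375 with the 6 knockdown samples as 1 group, 3298 with the construct controls subtracted (2455 shared), 2066 at 2-fold or more and 8814 without sample 2 of Ajuba OE and of shAjuba2. Against shAjuba1 alone the last setting gave 8915. Ajuba OE against Control alone, in place of 3 control lines, gave 2386. Leaving out 1 sample at a time gave 3878 (without Ajuba OE 3) to 7091 (without Ajuba OE 2) between the ends, and 3921 without Ajuba OE 1. It gave 3892 to 6496 against shAjuba1, 3840 to 7461 against shAjuba2, 2801 to 4353 against the control lines, 4681 to 7398 between control and knockdown lines and 2561 to 4892 between both knockdown lines, where the count was 2561, 2739 and 2873 without shAjuba1 1, 2 and 3. Dropping sample 2 of Ajuba OE, shAjuba2 and Control together, an alternative chosen after seeing the data, gave 5156 for Ajuba OE and 8391 for the knockdown lines against the control lines. DESeq2 gave 6299 between the ends, a filter of at least 10 counts in every sample 4849 and thinned counts 5340. A fit with the replicate block gave 6016 DEG, 5524 of them shared, although the numbers were not taken to pair the samples.

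Of 106 called genes that the rule names, 61 kept direction and call under every alternative. The call was lost under at least 1 alternative in 42, most often with the construct controls (30) or the pooled knockdown samples (20). The sign reversed with the construct controls in 4. CGNL1 passed at 1.28 (SE 0.38), whereas CCDC80 (0.23, SE 0.17), SPARC (0.048, SE 0.26) and ALPI (-1.12, SE 1.29) did not pass. Medians of 10 lists turned sign under at least 1 alternative, with EMT at -0.026 and endothelial markers at 0.36 under the filter of 10 counts, intestinal genes at -0.16 with every gene that had a count and at -0.13 to 0.25 with 1 sample left out, the lowest without Ajuba OE 1, and ERK output at -0.046 with pooled knockdown samples. The others were Hippo genes (0.02 without shAjuba2 1 and Ajuba OE 2 in turn), actin (-0.02), interferon (down to -0.01), integrins (down to -0.10), mitochondrial genes (up to 0.09) and nuclear RNAs (up to 0.16). The cause was not tested.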

Other observations

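Chromosome 13 carries none of the 24 genes named by size, though LATS2 from the Hippo list lies on it. This chromosome stood out when the 11148 protein-coding genes with a mean log2 CPM of at least 2 were sorted by chromosome. Its 196 genes had a median log2 fold change of 0.39 between Ajuba OE and both knockdown lines, and 150 of them (76.5%) were positive, against 59.4% over all chromosomes. The next highest median was 0.22, over 364 genes of chromosome 4, of which 74.2% were positive. With the construct controls subtracted, chromosome 13 had a median of 0.38. Relative to the mean of the 6 lines, its median was -0.21 in shAjuba1, -0.14 in shAjuba2, 0.07 in shScrambled, 0.08 in Parental, 0.05 in Control and 0.16 in Ajuba OE, so the control lines lay between the ends. Genes of a chromosome share samples and are not independent, and copy number was not measured. The chromosomes were ranked after their values were seen.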
